A study of Mus musculus with 62 samples.

Results

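The genes described here are 40 genes of the cell cycle, from Mki67, which encodes the proliferation marker Ki-67, to the cyclins, the replication helicase, the mitotic kinases and the spindle proteins. They were listed by name, and all 40 were found by mouse symbol among the 27179 genes counted in both tables. RNA was sequenced from the forebrain of embryos at the embryonic stage E17.5, 8 euploid and 7 Ts65Dn, and from the hippocampus of adult mice aged 6 weeks. The adult males were 8 euploid, 7 Ts65Dn and 8 Ts65Dn;Brwd1+/–, and the females were 8 of each genotype. Ts65Dn mice, a model of Down syndrome, carry a freely segregating extra chromosome with the distal part of chromosome 16, which corresponds to human chromosome 21, and a proximal part of chromosome 17, which does not. Ts65Dn;Brwd1+/– mice carry the same extra chromosome and a heterozygous mutation (repro5) of Brwd1, a chromatin reader gene of the triplicated part, which brings functional Brwd1 back to the euploid copy number. All groups were kept on the mixed background DBA/2J x B6EiC3Sn/J. The embryos were not labelled by sex, and none was labelled as carrying the Brwd1 mutation. None of the 40 genes lies in the triplicated segments.

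In the embryonic forebrain, radial glia and intermediate progenitors divide near the ventricles, and the neurons they produce leave the cell cycle for good. In the adult hippocampus, division is largely limited to progenitors of the dentate gyrus and to glial precursors. A cell enters the cycle when D-type and E-type cyclins release E2F factors, which turn on the genes of DNA replication. The genes of mitosis peak later and are controlled through a promoter element called the cell cycle genes homology region (CHR), bound by MuvB proteins, which belong to the repressive DREAM complex in resting cells. The kinase encoded by Dyrk1a, a gene on the extra chromosome, promotes the assembly of DREAM.

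Both classes of element were searched in RefSeq promoters (GRCm38.p6, the patch level of mm10), which were found for 31 of the 40 genes. Each ran from 250 bases before to 50 bases after the start given for that promoter. Only the first promoter listed for each gene was counted, and further promoters of a gene were not. The CHR letters TTTGAA were in 15 of these promoters (48.4%), against 18.1% of the 27025 first promoters of that length. The E2F letters TTTGGCGC, TTTGCCGC, TTTCGCGC or TTTCCCGC were in 6 (19.4%), against 2.32%, and CCAAT was in 25 (80.6%), against 37.9%. Both strands were searched, and matches of different motifs could overlap. CHR letters were in 12 and E2F letters in 1 of 17 promoters of the mitotic kinases, checkpoint, centromere and spindle genes. Among 7 promoters of replication licensing genes the counts were 1 (Mcm2) and 5 (Cdc6, Mcm3, Mcm5, Mcm6 and Mcm7).

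These stretches of 160 bases end at the base before the start of the promoter used and are shown because they hold CHR or E2F letters. For Mki67 and Mcm5 that start lies inside the annotated span of the gene, so part of the stretch does too. They read 5′ to 3′ on the strand of the gene, with CHR and E2F letters in capitals. Cdc20, the activator of the anaphase-promoting complex (chr4:118437344-118437503, minus strand), and Mki67 (chr7:135716380-135716539, minus strand) hold CHR letters. Cdk1, the kinase that drives mitosis (chr10:69352913-69353072, minus strand), holds both. Mcm5 (chr8:75109349-75109508, plus strand) and Mcm6 (chr1:128359706-128359865, minus strand), subunits of the replicative helicase, hold E2F letters, some of them overlapping on opposite strands.
Cdc20: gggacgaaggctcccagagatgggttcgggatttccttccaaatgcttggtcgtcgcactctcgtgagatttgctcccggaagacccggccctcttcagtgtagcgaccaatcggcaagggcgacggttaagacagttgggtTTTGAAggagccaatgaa
Mki67: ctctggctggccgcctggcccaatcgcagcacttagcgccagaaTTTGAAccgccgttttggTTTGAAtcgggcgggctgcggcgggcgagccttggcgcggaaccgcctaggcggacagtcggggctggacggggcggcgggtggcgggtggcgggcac
Cdk1: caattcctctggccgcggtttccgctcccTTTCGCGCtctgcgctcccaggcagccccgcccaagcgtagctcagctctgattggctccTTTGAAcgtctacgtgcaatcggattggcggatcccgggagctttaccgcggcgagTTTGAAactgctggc
Mcm5: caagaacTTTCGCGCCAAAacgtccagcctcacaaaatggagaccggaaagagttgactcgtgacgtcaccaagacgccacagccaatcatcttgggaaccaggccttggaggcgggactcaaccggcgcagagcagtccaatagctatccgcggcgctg
Mcm6: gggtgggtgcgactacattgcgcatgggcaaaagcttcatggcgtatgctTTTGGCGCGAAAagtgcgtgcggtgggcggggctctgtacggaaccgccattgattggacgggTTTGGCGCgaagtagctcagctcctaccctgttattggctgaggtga

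Library totals ranged from 14.9 M to 137.1 M counts. Among the adults, 4 libraries labelled trisomic (1 male Ts65Dn, 2 male and 1 female Ts65Dn;Brwd1+/–) had triplicated genes at the euploid level, and 2 others (1 male Ts65Dn and 1 female euploid) had sex-linked genes that went against the labelled sex. All 7 Ts65Dn embryos had raised dosage. The adult comparisons were repeated without these 6 libraries. En2, a gene of the midbrain and hindbrain chosen after its values were seen, ranged over -2.74 to 5.40 log2 counts-per-million (CPM) in euploid and -2.94 to 6.54 in Ts65Dn embryos and was highest in TS7 (6.54), with EU7 (5.40) next and 4.91 in TS5. Markers of forebrain cells, chosen likewise, were lowest in TS7, which was at 1.86 for Emx1, 4.54 for Tbr1, 5.73 for Neurod6 and 3.27 for Dlx1. The euploid embryos ranged over 3.85 to 5.18, 6.53 to 7.49, 7.28 to 9.66 and 5.92 to 6.80, and TS5 was at 3.71, 6.12, 7.49 and 5.84. The part of these markers in the embryo results was not tested. Prox1, which marks dentate granule neurons, was at 4.25 to 5.56 log2 CPM in euploid and 4.0 to 5.69 in Ts65Dn embryos, and at 5.54 to 7.05 in the adults other than 2. The euploid female B125 (4.19) and the Ts65Dn;Brwd1+/– female B176 (4.32) stood apart at embryonic levels, against group medians of 6.34 and 5.93. They were also the lowest adults for Zbtb20, another gene of hippocampal neurons, at 1.19 and 1.41, against group medians of 4.45 and 3.96. Other hippocampal genes were not at embryonic levels in them. No library of their groups was below 6.77 for Wfs1, 6.96 for Fibcd1 or 6.31 for Calb1. The highest embryos were at 4.70, 5.60 and 5.58.

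In E17.5 forebrain, none of the 40 genes was differentially expressed (DE) in Ts65Dn vs. euploid embryos at an adjusted p under 0.1, the cutoff of the study, while 1.35% of all 16395 genes tested were. The test was edgeR's quasi-likelihood test on counts, with Benjamini-Hochberg adjustment over all genes, and a log2 fold change above 0 means a higher level in Ts65Dn. The log2 fold change was below 0 for 39 of the 40 genes, with a median of -0.23 (range -0.37 to 0.17). Among all genes 53.7% were below 0, with a median of -0.01. At an unadjusted p under 0.05, 2 of the 40 genes (5.0%) were lower and 0 higher, against 5.25% of all genes lower and 12.1% in either direction. Genes of one cycle share their cells, so the 39 are not separate observations. In bulk tissue, fewer dividing cells and less RNA per dividing cell cannot be told apart.

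Mki67 (gene 17345, chr7:135689784-135716450) was at 5.98, 6.67, 6.34, 7.08, 6.61, 6.38, 6.55 and 6.65 log2 CPM in the euploid embryos EU1 to EU8. It was at 6.41, 5.86, 6.26, 6.75, 5.53, 6.81 and 5.55 in the Ts65Dn embryos TS1 to TS7. TS2, TS5 and TS7 lay below all euploid embryos, and the other 4 lay among them. The log2 fold change was -0.31 (SE 0.20, adjusted p = 0.533). Top2a, the topoisomerase that untangles replicated chromosomes, ranged over 6.07 to 7.45 (median 6.74) in euploid and 5.42 to 7.13 (median 6.31) in Ts65Dn embryos, with a log2 fold change of -0.31 (SE 0.26, adjusted p = 0.605).

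**Figure D1:**
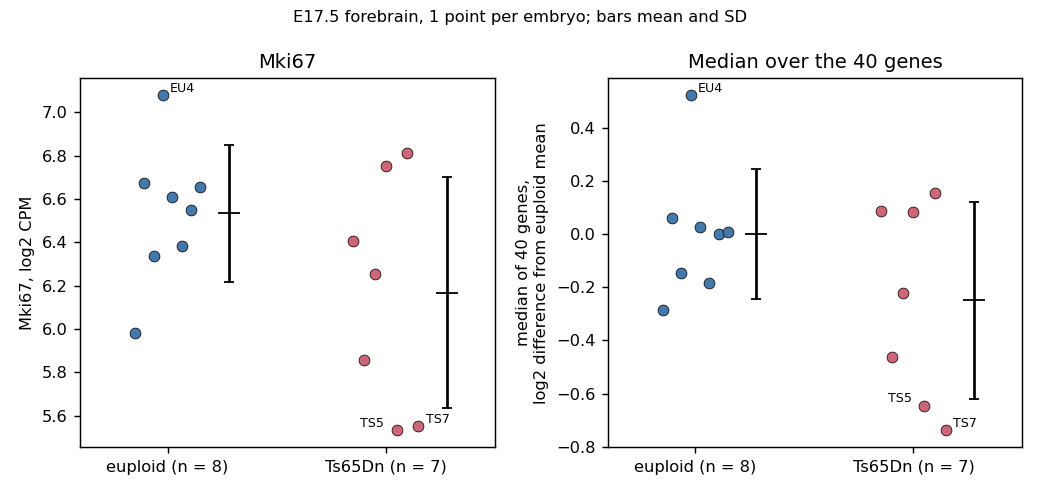
Log2 CPM of Mki67 (left) and the median over the 40 genes of the log2 difference from the euploid mean (right), 1 point for each of 8 euploid and 7 Ts65Dn embryos. The genotypes overlap, EU4 is highest (0.52), and TS5 and TS7 are lowest in the median (-0.65 and -0.74). Bars show the mean and SD of each genotype.

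The G1 genes had a median log2 fold change of -0.15. Ccnd2, a D-type cyclin of cortical progenitors, was at 7.47 to 8.43 (median 7.93) log2 CPM in euploid and 7.02 to 8.45 (median 7.56) in Ts65Dn embryos, a difference of -0.15 (SE 0.20, adjusted p = 0.760). Ccnd1, another D-type cyclin, was at -0.15 (SE 0.09), E2f1, a factor that turns on replication genes, at -0.22 (SE 0.13), and Ccne2, an E-type cyclin, at -0.07 (SE 0.11). Ccne1, the other E-type cyclin, was the single gene of the 40 with a log2 fold change above 0. It was at 2.53 to 3.34 (median 3.06) in euploid and 3.04 to 3.50 (median 3.19) in Ts65Dn embryos, with 0.17 (SE 0.12, adjusted p = 0.552).

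Replication licensing genes stood closest to 0, with a median of -0.07 over 9 genes. Mcm7, a subunit of the replicative helicase, had the smallest p of the 40. It was at 6.27, 6.59, 6.27, 7.11, 6.71, 6.39, 6.64 and 6.57 log2 CPM in EU1 to EU8 and at 6.56, 6.07, 6.21, 6.60, 5.94, 6.48 and 6.03 in TS1 to TS7. TS2, TS3, TS5 and TS7 lay below all euploid embryos, and the log2 fold change was -0.30 (SE 0.13, adjusted p = 0.379). The other helicase subunits were at -0.22 (Mcm3), -0.19 (Mcm5), -0.08 (Mcm6), -0.07 (Mcm2) and -0.06 (Mcm4). Pcna, the sliding clamp of the replication fork, was at -0.05 (SE 0.14), Gins2, a helicase cofactor, at -0.06 (SE 0.13), and Cdc6, which loads the helicase at origins, at -0.02 (SE 0.19). Nucleotide supply genes had a median of -0.18, with Rrm2, a subunit of ribonucleotide reductase, at -0.32 (SE 0.17, adjusted p = 0.451), and Tyms, thymidylate synthase, at -0.18 (SE 0.16).

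Among the mitotic genes, medians were -0.24 over 7 cyclins and kinases, -0.25 over 4 checkpoint and anaphase genes, -0.26 over 6 spindle proteins and -0.30 over 4 centromere and passenger genes. Cenpa, the histone variant of centromeres, had the lowest log2 fold change of the 40, -0.37 (SE 0.18, adjusted p = 0.422), with 3.85 to 4.68 (median 4.0) log2 CPM in euploid and 2.98 to 4.20 (median 3.56) in Ts65Dn embryos. Prc1, which bundles spindle microtubules, was at 4.92 to 5.74 (median 5.18) and 4.56 to 5.25 (median 5.05), a difference of -0.28 (SE 0.13, adjusted p = 0.412). Its span overlaps Rccd1 by 21669 bases, and the libraries do not keep the strand. Ccnb1, the cyclin that activates Cdk1 in mitosis, was at -0.29 (SE 0.24), Ccna2, the S and G2 cyclin, at -0.26 (SE 0.18), Cdc20 at -0.24 (SE 0.14), Ube2c, an enzyme of the anaphase-promoting complex, at -0.29 (SE 0.18), and Kif11, the motor that separates spindle poles, at -0.30 (SE 0.26). Differences between these functional groups were not tested.

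The remaining mitotic genes ranged from -0.31 to -0.13. Among the kinases, Cdk1 was at -0.13 (SE 0.21), Aurka at -0.24 (SE 0.16), Aurkb, the catalytic part of the passenger complex, at -0.27 (SE 0.15), and Plk1, which acts from mitotic entry to cytokinesis, at -0.20 (SE 0.11). Ccnb2, another mitotic cyclin, was at -0.21 (SE 0.16). The checkpoint genes Bub1 and Bub1b were at -0.24 (SE 0.24) and -0.26 (SE 0.16). At the centromere, Birc5 of the passenger complex was at -0.31 (SE 0.15), Cenpe, a kinetochore motor, at -0.28 (SE 0.21), and Cenpf, a kinetochore protein, at -0.29 (SE 0.22). Among the spindle proteins, Kif23 was at -0.30 (SE 0.18), Kif20a, another motor of cytokinesis, at -0.24 (SE 0.19), Tpx2, which activates Aurka on the spindle, at -0.22 (SE 0.19), and Nusap1, a microtubule-binding protein, at -0.19 (SE 0.22). Uhrf1, which keeps DNA methylation on replicated chromatin, was at -0.17 (SE 0.12). Kif11 reached 5.64 log2 CPM in TS6, above all euploid embryos, and 3.60 and 3.75 in TS5 and TS7, below all of them.

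The 40 genes tended to be high or low in the same embryos. EU4 was highest of the 15 embryos for 30 genes, and TS7 was lowest for 24 and TS5 for 12. For 38 genes EU4 lay above, and both TS5 and TS7 below, the mean of the embryos. A gene spanned 1.32 log2 units over the embryos in the median (0.59 to 2.15). The median over the 40 genes of the difference from the euploid mean was -0.29 to 0.06 in 7 euploid embryos and 0.52 in EU4. It was 0.09, -0.46, -0.22, 0.08, -0.65, 0.15 and -0.74 in TS1 to TS7, so 3 of the 7 Ts65Dn embryos were above 0.

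**Figure D2:**
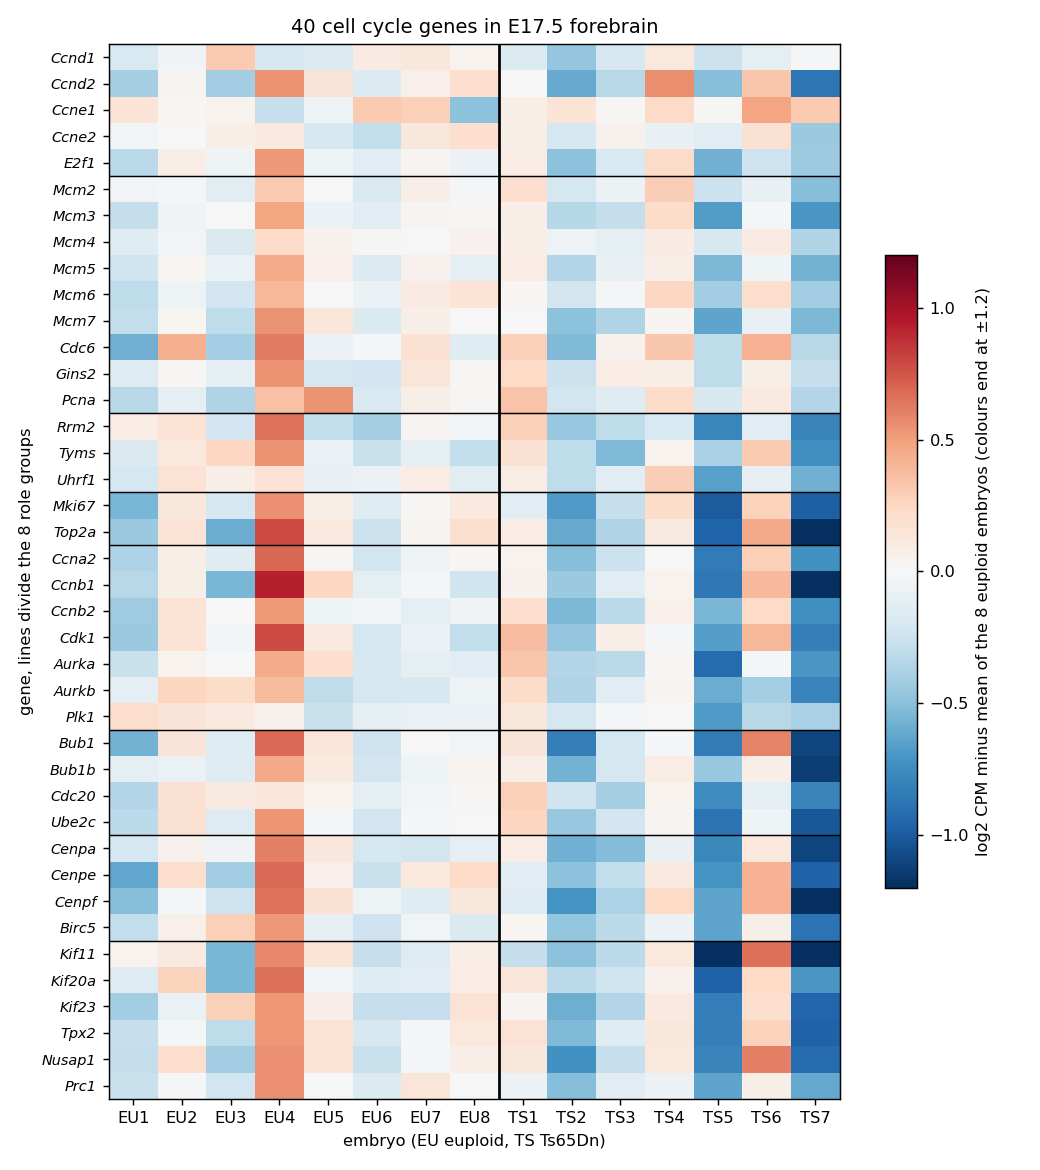
Log2 CPM of the 40 genes (rows, by function) in each of the 15 embryos (columns), as the difference from the mean of each gene over the 8 euploid embryos, in colours that end at 1.2 on either side. EU4 is the highest column for 30 genes, and TS7 or TS5 the lowest for 24 and 12.

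Markers of intermediate progenitors were highest and lowest in the same embryos. Summed over the 40 cell cycle genes, the level was 1152 to 2022 CPM in euploid embryos, with 2022 in EU4, and 857 to 1634 CPM in Ts65Dn embryos, with 857 in TS7 and 928 in TS5. Markers of intermediate progenitors ranged over 215 to 412 and 126 to 281 CPM, with 412 in EU4, 126 in TS7 and 159 in TS5, those of the ganglionic eminences over 169 to 294 and 47.6 to 313 CPM, with 253, 47.6 and 139 in these embryos, and those of radial glia over 1401 to 1682 and 1447 to 1667 CPM. Between genotypes, 6 of 6 ganglionic eminence genes (median log2 fold change -0.48) and 6 of 6 intermediate progenitor genes (-0.31) were below 0, and none was DE. Of genes of immature neurons 6 of 7 were below 0 (-0.23), with 2 at an unadjusted p under 0.05 and none DE. All 6 choroid plexus genes (0.48) and all 6 oligodendrocyte precursor genes (0.34) were above 0. The latter include Olig1 and Olig2, which lie on the extra chromosome. Pdgfra, the growth factor receptor of these precursors, rose by 0.39 (SE 0.09, adjusted p = 0.0546). Of 6 astrocyte genes, Gja1, a gap junction gene, rose by 0.59 (SE 0.13, adjusted p = 0.0330). The part of these markers in the values of the cell cycle genes was not tested.

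Without TS5 and TS7, left out after the data were seen, 29 of the 40 genes were below 0, the median was -0.05, and 0 had an unadjusted p under 0.05. TS5 and TS7 were the embryos lowest in these genes, so leaving them out moves the median toward 0 by itself. Mki67 was then at -0.09 (SE 0.18, adjusted p = 0.941) and Mcm7 at -0.18 (SE 0.13, adjusted p = 0.814). With 1 embryo left out at a time, 35 to 39 genes were below 0 and none was DE. The median was -0.14 without EU4, -0.15 without TS5 and -0.15 without TS7, and between -0.28 and -0.18 without any other embryo. The number of genes at an unadjusted p under 0.05 moved between 0 and 10, the latter without TS1, while it was 8 without TS6, 6 without TS4, 5 without EU6, 1 without EU7 or EU8, and 0 without EU2, EU4, EU5, TS2, TS3, TS5 or TS7.

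The calls depended on the model. DESeq2 called 0 of the 40 genes and 3.58% of all genes. With 1 RUVr factor of unwanted variation it called 15 of the 40, all lower, while 13.1% of all genes were called and 6.05% were called lower. With 3 factors it called 25, all lower, while 24.2% were called and 12.1% called lower. The study used RUVr, and its number of factors is not given in the sources used here. With 1 factor, Mki67 fell by 0.34 (SE 0.11, adjusted p = 0.0319), and Mcm7 fell by 0.28 (SE 0.07, adjusted p = 0.00247). For Mki67 the fold change stayed close to that of the edgeR fit, and its SE was smaller. With the number in the embryo titles, one for EU1 to EU4 and TS1 to TS3 and another for the rest, as a covariate, edgeR called 0 of the 40, 39 were below 0 and the median was -0.22, and with Ddx3y, a Y-linked gene, as a covariate for sex the values were 0, 37 and -0.19.

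Further cell cycle genes were read from lists made by function. Of 69 other G2 and mitosis genes 65 were below 0 (median -0.22) and none was DE. Of 53 other replication genes 47 were below 0 (median -0.15) and 1 was DE, against 53.7% of all genes below 0 and 1.35% DE. This was Chaf1b, which helps place histones on new DNA and lies on the extra chromosome, and it rose by 0.54 (SE 0.13, adjusted p = 0.0725). Mis18a, a gene of the extra chromosome that helps load Cenpa at centromeres, was at 0.40 (SE 0.12, adjusted p = 0.146). Dyrk1a rose by 0.52 (SE 0.05, adjusted p = 1.21e-05) and was the single DE gene of 11 in the DREAM and MuvB list, of which 8 were below 0 (median -0.07). Of 14 inhibitors and pocket proteins 9 were below 0 (median -0.05) and of 10 other G1 regulators 7 (median -0.13), with none DE.

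In the adult hippocampus most of the 40 genes were at low levels. Levels per gene length (RPKM, CPM divided by the exon length in kilobases) were compared in euploid animals, without a test, since tissue, age and count table cannot be told apart. For 38 of the 40 genes every one of the 8 embryos was above every one of the 16 adults. The embryo median was 11.9-fold the adult median for the median gene, against 1.33-fold over 14653 genes above 1 CPM in embryos. The fold was over 10 for 21 of the 40 genes and for 3.02% of all. In adults 30 of the 40 genes were under 1 RPKM, and in embryos 1 was, Cdc6 (0.976).

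**Figure D3:**
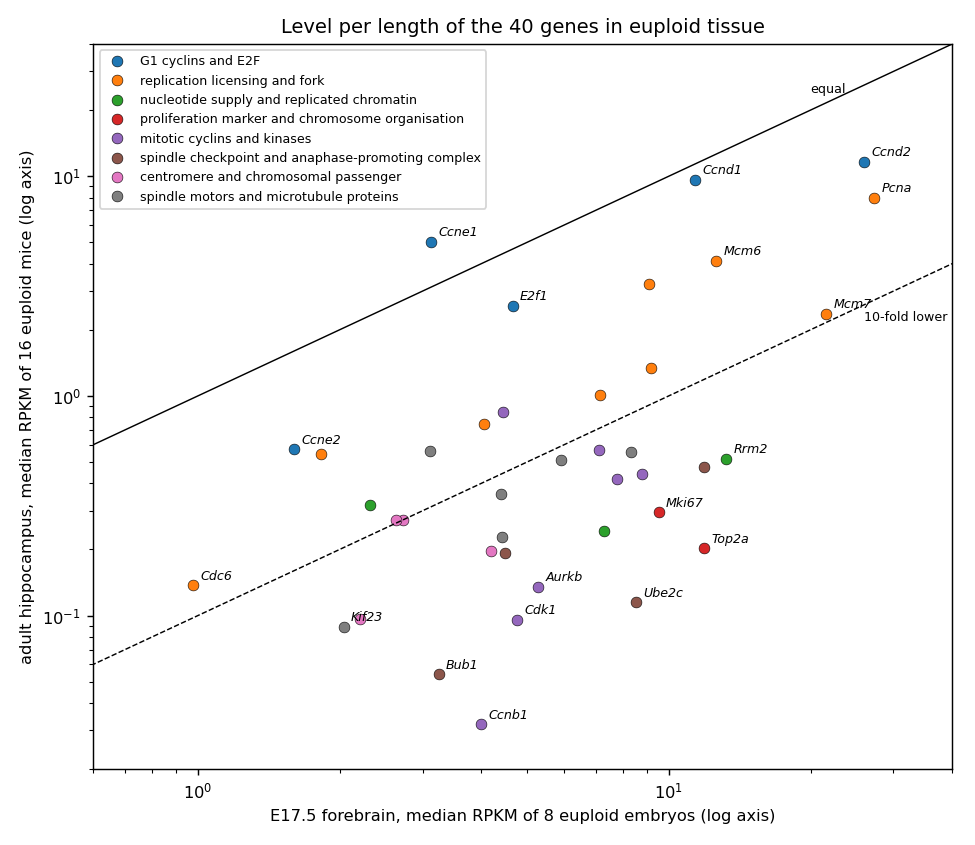
Median RPKM of each of the 40 genes in 8 euploid E17.5 forebrains (x axis) and 16 euploid adult hippocampi (y axis), both on log axes. Ccne1 alone is above the line of equality (3.13 and 5.03 RPKM), and Ccnb1 is farthest below it (4.0 and 0.0320 RPKM).

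The fold differed along the cycle. Its median was 1.81 for G1 genes, 5.45 for replication licensing, 13.7 for spindle proteins, 15.6 for centromere genes, 19.9 for mitotic cyclins and kinases, 25.6 for nucleotide supply, 42.6 for checkpoint and anaphase genes and 45.4 for Mki67 and Top2a. Ccnb1 (125-fold), Ube2c (74.4-fold), Bub1, a checkpoint kinase (60.1-fold), Top2a (58.7-fold) and Cdk1 (49.7-fold) had the highest. Mki67 was at 9.51 RPKM in embryos and 0.295 in adults. Ccnb1 had 4 to 17 counts per euploid adult library and failed the filter on low counts, so 39 genes were tested in adults. Ccnd2, by contrast, was the most abundant of the 40 in adults (11.7 RPKM, with 26 in embryos), followed by Ccnd1 (9.64), Pcna (8.0), Ccne1 (5.03) and Mcm6 (4.13). In embryos Pcna was the most abundant (27.3 RPKM). E2f1 and Ccnd1 differed by 1.81-fold and 1.18-fold. The span of Ccnd2 overlaps the noncoding gene 9330179D12Rik by 2800 bases, and 12 of the 40 genes overlap another counted gene.

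In males, none of the 39 genes was DE in Ts65Dn vs. euploid (0.795% of all genes were), in Ts65Dn;Brwd1+/– vs. Ts65Dn (0.0%) or in Ts65Dn;Brwd1+/– vs. euploid (0.576%). In the comparison with 0.0%, DESeq2 called 1 gene, which was not among the 39. The log2 fold change was below 0 for 24, 19 and 25 of the 39 genes in these comparisons, with medians of -0.05, 0.005 and -0.05. At an unadjusted p under 0.05 there were 2, 1 and 3 of the 39, against 8.91%, 7.48% and 10.1% of all genes. Both comparisons with euploid males share these controls.

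Mki67 ranged over 0.96 to 2.06 (median 1.48) log2 CPM in euploid, 1.23 to 2.02 (median 1.55) in Ts65Dn and 0.42 to 2.07 (median 1.31) in Ts65Dn;Brwd1+/– males. The groups overlapped, with a log2 fold change of -0.0036 (SE 0.19) in Ts65Dn vs. euploid and -0.25 (SE 0.20, adjusted p = 0.802) in Ts65Dn;Brwd1+/– vs. Ts65Dn. Bub1b, a protein of the spindle checkpoint, was at -2.24 to 1.24 (median 0.24) in euploid and -1.58 to -0.14 (median -0.42) in Ts65Dn males, a difference of -0.94 (SE 0.40, adjusted p = 0.491). Aurka, a kinase of the spindle poles, was at 0.91 to 1.35 (median 1.03) and 1.06 to 1.71 (median 1.26), a difference of 0.26 (SE 0.12, adjusted p = 0.523). Mcm6 had the smallest p in Ts65Dn;Brwd1+/– vs. Ts65Dn males, at -0.26 (SE 0.11, adjusted p = 0.630), with 3.88 to 4.77 (median 4.30) in Ts65Dn and 3.8 to 4.31 (median 4.06) in Ts65Dn;Brwd1+/– males. Cenpe, a motor that aligns chromosomes, had the smallest p in Ts65Dn;Brwd1+/– vs. euploid, at 0.40 (SE 0.13, adjusted p = 0.242), with 0.90 to 1.51 (median 1.16) in euploid and 1.15 to 2.07 (median 1.54) in Ts65Dn;Brwd1+/– males. Without the libraries that went against their labels, none of the 39 was DE in males, 27, 19 and 26 were below 0 in the 3 comparisons (medians -0.07, 0.01 and -0.08), 3, 0 and 3 had an unadjusted p under 0.05, and Mki67 was at -0.12 (SE 0.19, adjusted p = 0.856) in Ts65Dn vs. euploid. With 3 RUVr factors DESeq2 called Mcm6 in the former comparison and Cenpe and Mcm6 in the latter, where it called 5.66% and 7.65% of all genes. With 1 factor it called Cenpe in the latter, and 3.99% of all genes.

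In females, none of the 39 genes was DE in Ts65Dn vs. euploid, where 3.17% of all genes were. The log2 fold change was below 0 for 31 of the 39 genes (median -0.20), against 54.3% of all genes (median -0.02). At an unadjusted p under 0.05, 10 (25.6%) were lower and 0 higher, against 8.35% of all genes lower and 15.4% in either direction. In order of p these were Top2a, Bub1, Rrm2, Mcm7, Birc5, Cenpa, Nusap1, Mcm6, Mcm5 and Uhrf1. Medians were -0.69 for Mki67 and Top2a, -0.51 for checkpoint genes, -0.40 for centromere genes, -0.39 for nucleotide supply, -0.28 for mitotic cyclins and kinases, -0.19 for spindle proteins, -0.09 for replication licensing and -0.03 for G1 genes. Without the females B125 and B176, which were lowest in Prox1, 5 of the 39 genes were called, all lower. In that setting 17.4% of all genes were called, and 9.23% were called lower.

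**Figure D4:**
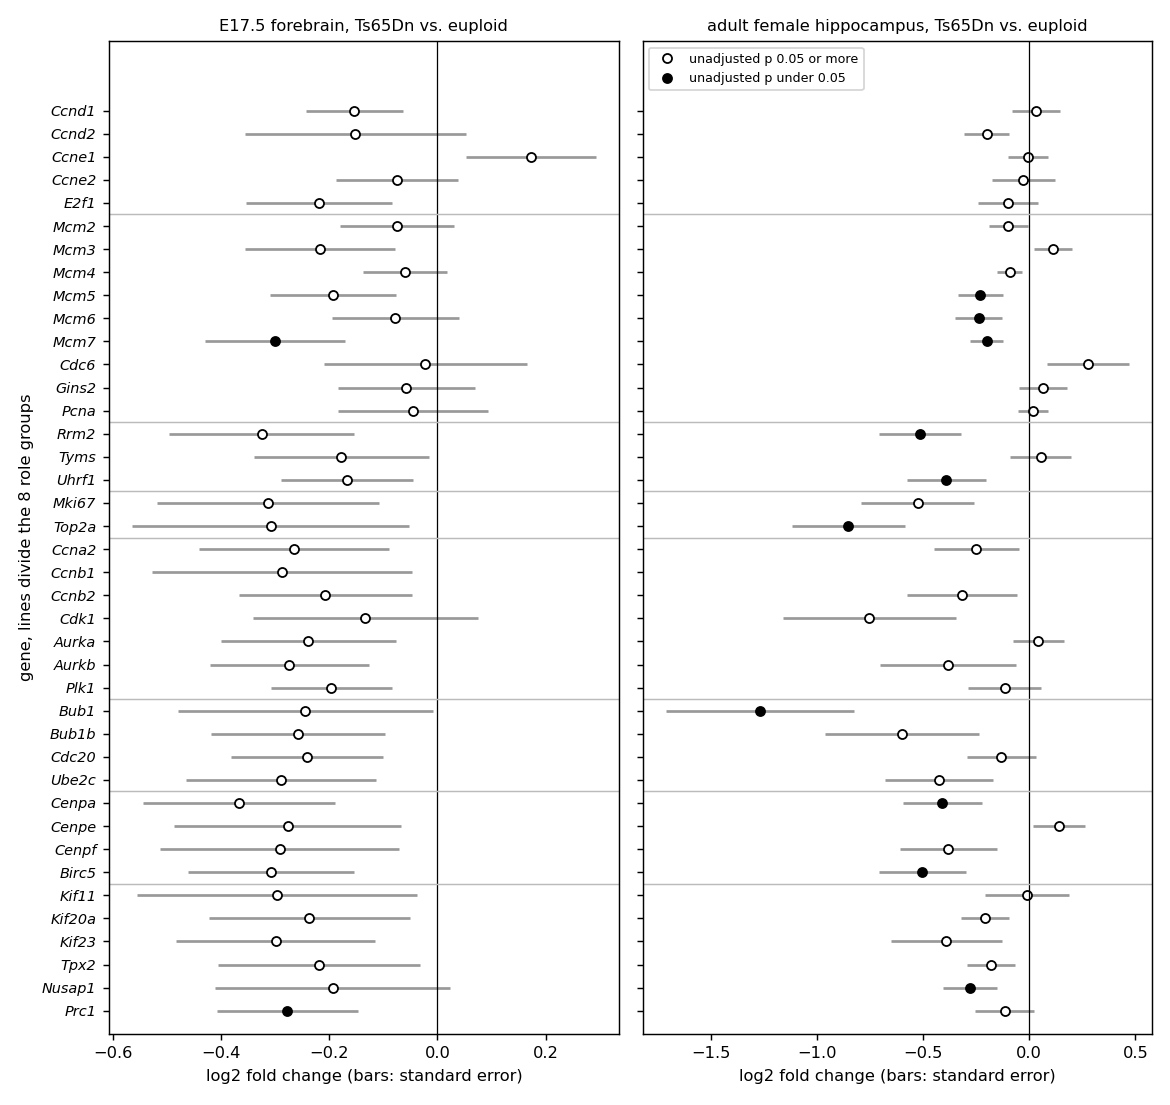
Log2 fold change of Ts65Dn vs. euploid with its SE for each of the 40 genes in E17.5 forebrain and in adult female hippocampus. Filled points have an unadjusted p under 0.05 (2 of 40 genes in embryos and 10 of 39 in females), and no gene is DE in either.

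Top2a came closest to the cutoff. From high to low, it was at 2.13, 1.12, 1.02, 0.95, 0.74, 0.64, 0.55 and 0.47 log2 CPM in the euploid females and at 0.72, 0.72, 0.56, 0.55, -0.10, -0.33, -0.65 and -0.73 in the Ts65Dn females. The 4 lowest Ts65Dn females lay below all euploid females, the other 4 lay among them, and the log2 fold change was -0.85 (SE 0.27, adjusted p = 0.107). Mki67 ranged over 0.31 to 2.85 (median 1.80) in euploid and 0.74 to 1.91 (median 1.33) in Ts65Dn females, with -0.53 (SE 0.27, adjusted p = 0.353). Bub1 had 4 to 40 counts per euploid library and 0 to 15 per Ts65Dn library, with 2 of these at 0, and a fitted log2 fold change of -1.27 (SE 0.44, adjusted p = 0.149). Rrm2 was at -0.02 to 1.06 (median 0.52) log2 CPM in euploid and -1.05 to 0.68 (median -0.15) in Ts65Dn females, with -0.51 (SE 0.19, adjusted p = 0.180). Across all 47 adults Bub1 had 0 to 40 counts and Aurkb 0 to 61. The groups overlapped in every comparison for each gene tested, 40 in embryos and 39 in adults. Of all genes, 0.518% did not overlap in embryos, 0.531% in Ts65Dn vs. euploid females and 0.178% in these males. This share was 0.0292% and 0.0534% for Ts65Dn;Brwd1+/– vs. Ts65Dn females and males, and 0.111% and 0.125% against euploid.

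Mki67 was at 2.85, 2.29, 2.19, 1.90, 1.70, 1.5, 1.42 and 0.31 log2 CPM in the euploid females, at 1.91, 1.75, 1.64, 1.57, 1.08, 1.07, 1.07 and 0.74 in the Ts65Dn females and at 1.79, 1.47, 1.44, 1.38, 1.33, 1.14, 0.75 and 0.05 in the Ts65Dn;Brwd1+/– females, each from high to low. Euploid females held both a level above all others and one of the lowest. The lowest euploid level (0.31) was that of B125. The lowest Ts65Dn;Brwd1+/– level (0.05) was that of B176, and both of these females were also low in Prox1. Of the other genes with an unadjusted p under 0.05, Mcm7 was at 3.27 to 3.82 (median 3.50) in euploid and 3.12 to 3.50 (median 3.35) in Ts65Dn females, with -0.20 (SE 0.08, adjusted p = 0.198). Birc5 was at -0.96 to 0.20 (median -0.37) and -1.37 to -0.11 (median -0.99), with -0.50 (SE 0.20, adjusted p = 0.222), and Cenpa at 0.23 to 1.22 (median 0.72) and -0.23 to 1.13 (median 0.27), with -0.41 (SE 0.19, adjusted p = 0.284). Nusap1 was at -0.28 (SE 0.13), Mcm6 at -0.24 (SE 0.11), Mcm5 at -0.23 (SE 0.11) and Uhrf1 at -0.39 (SE 0.19). Of the 8 genes above 0, Cdc6 was at 0.28 (SE 0.19) and Mcm3 at 0.11 (SE 0.09). Ccnd2, the most abundant of the 40 genes in adults, was at 6.33 to 6.98 (median 6.84) in euploid, 6.26 to 6.81 (median 6.55) in Ts65Dn and 6.35 to 6.86 (median 6.57) in Ts65Dn;Brwd1+/– females, and at 6.55 to 6.89 (median 6.76), 6.33 to 6.90 (median 6.62) and 6.48 to 6.92 (median 6.62) in the males of these genotypes. Its log2 fold change in Ts65Dn vs. euploid was -0.20 (SE 0.11) in females and -0.12 (SE 0.08) in males.

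The euploid female B17 was the highest of all 47 adults for 10 of the 40 genes, Mki67 (2.85) and Top2a (2.13) among them, and its choroid plexus markers summed to 6134 CPM, also the highest. Without B17, left out after the data were seen, 30 of the 39 genes were below 0 (median -0.17), 6 had an unadjusted p under 0.05, and Top2a was at -0.60 (SE 0.24, adjusted p = 0.253). Another euploid female, B85, one of the 2 libraries with sex-linked genes against the label, stood apart in progenitor markers. Its markers of ganglionic eminence progenitors summed to 138 CPM, with 65.1 in B17 as the next adult, and it was at 5.95 log2 CPM for Dlx1 and 4.64 for Eomes, against medians of 3.75 and 0.60 in euploid females. B85 was at 1.90 for Mki67 and 0.95 for Top2a. Without B85, left out after the data were seen, 30 genes were below 0 (median -0.23) and 9 had an unadjusted p under 0.05. These counts were 30 (-0.23) and 9 without the libraries against their labels. DESeq2 called 2 of the 39 genes, Top2a and Bub1, and 6.12% of all genes. With 1 and 3 RUVr factors it called 7 and 9, all lower, against 7.40% and 11.8% of all genes called lower.

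Calls in females also turned on the 2 libraries lowest in Prox1, left out after the data were seen. B125 was also the lowest euploid female for Mki67, so leaving it out by itself makes the fall of Mki67 from euploid larger. Without the euploid B125, edgeR called Top2a, which fell by 0.89 (SE 0.28, adjusted p = 0.0669) in Ts65Dn vs. euploid females, while 9.32% of all genes were called and 4.61% called lower. Without both B125 and B176 it called 5 of the 39 genes, all lower, while 17.4% of all genes were called and 9.23% called lower. Top2a then fell by 0.88 (SE 0.27, adjusted p = 0.0439), Mki67 by 0.65 (SE 0.21, adjusted p = 0.0506), Bub1 by 1.30 (SE 0.47, adjusted p = 0.0780), Nusap1 by 0.33 (SE 0.12, adjusted p = 0.0787) and Mcm6 by 0.28 (SE 0.11, adjusted p = 0.0912). The number of genes below 0 was 31 without B125 and 30 without both, with medians of -0.19 and -0.19, and 10 and 11 had an unadjusted p under 0.05.

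**Figure D5:**
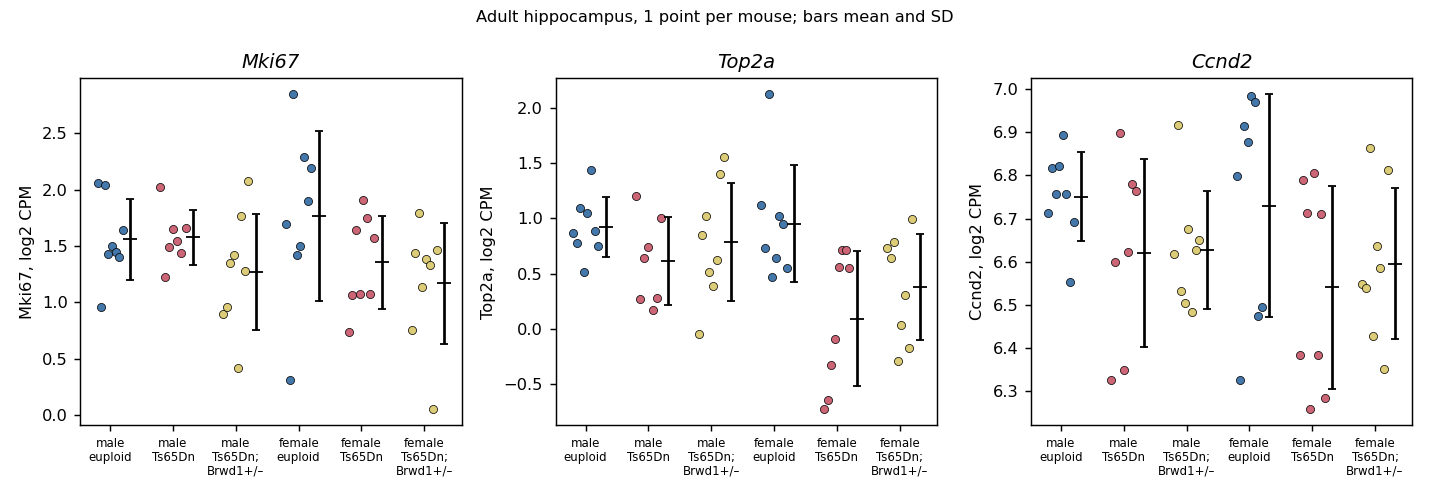
Log2 CPM of Mki67, Top2a and Ccnd2 in each adult hippocampus library by sex and genotype, with 7 or 8 libraries per group. The groups overlap for all 3 genes, and 1 euploid female is highest for both Mki67 (2.85) and Top2a (2.13).

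Ts65Dn;Brwd1+/– vs. Ts65Dn females, which differ in the copy number of Brwd1, gave no DE gene among the 39 and 0.0% of all genes, where DESeq2 called 14 genes and none of the 39. The log2 fold change was below 0 for 18 genes (median 0.01), and 2 had an unadjusted p under 0.05, against 3.52% of all genes. Mcm3, a helicase subunit, was at 1.82 to 2.1 (median 2.06) log2 CPM in Ts65Dn and 1.47 to 1.91 (median 1.72) in Ts65Dn;Brwd1+/– females, with -0.31 (SE 0.09, adjusted p = 0.920). Birc5, which encodes survivin of the chromosomal passenger complex, was at 0.43 (SE 0.21), with -1.37 to -0.11 (median -0.99) in Ts65Dn and -1.02 to 0.23 (median -0.49) in Ts65Dn;Brwd1+/– females. Mki67 ranged over 0.05 to 1.79 (median 1.36) in Ts65Dn;Brwd1+/– females, with -0.16 (SE 0.27), and Top2a over -0.29 to 0.99 (median 0.47), with 0.24 (SE 0.27). Without libraries against their labels 16 genes were below 0 (median 0.01) and 4 had an unadjusted p under 0.05, and without B125 and B176 these counts were 20 (-0.01) and 1. With 3 RUVr factors DESeq2 called Mcm3, which was lower, against 3.06% of all genes called lower.

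Against the same euploid females, Ts65Dn;Brwd1+/– females had 35 of 39 genes below 0 (median -0.15), none DE (0.729% of all genes were) and 6 lower at an unadjusted p under 0.05, against 6.11% of all genes lower and 11.2% in either direction. These were Kif23, Mki67, Mcm7, Mcm6, Top2a and Mcm3. Kif23, a motor of the cleavage furrow, was at -0.94 to 0.57 (median -0.33) log2 CPM in euploid and -1.42 to -0.35 (median -1.02) in Ts65Dn;Brwd1+/– females, with -0.70 (SE 0.26, adjusted p = 0.322), and Mki67 was at -0.69 (SE 0.27, adjusted p = 0.341). Without B17, 4 genes had an unadjusted p under 0.05 and Mki67 was at -0.48 (SE 0.25, adjusted p = 0.649). Without libraries against their labels 33 genes were below 0 (median -0.15) and 7 had an unadjusted p under 0.05. These counts were 35 (-0.16) and 7 without B85, 31 (-0.18) and 8 without B125, and 34 (-0.16) and 5 without B125 and B176. Without B125 edgeR called 3 of the 39 genes and 8.0% of all genes, and Mki67 fell by 0.82 (SE 0.24, adjusted p = 0.0652), Kif23 by 0.78 (SE 0.27, adjusted p = 0.0978) and Mcm6 by 0.32 (SE 0.11, adjusted p = 0.0904). Without both it called Mki67, which fell by 0.70 (SE 0.22, adjusted p = 0.0934), and 4.44% of all genes. B125 and B176 were the lowest of their groups for Mki67, so its fall depends on which of them is left out. With 1 RUVr factor DESeq2 called Mki67 and Kif23, both lower, against 6.39% of all genes called lower, and with 3 factors it called 5, Mcm6, Mcm7, Mki67, Top2a and Kif23, all lower, against 10.6%.

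The sexes were compared by an interaction test over the 47 adults. For Ts65Dn vs. euploid, 0 of the 39 genes and 0.0% of all genes passed, 0 of the 39 had an unadjusted p under 0.05 (11.1% of all genes did), and DESeq2 called 94 genes and none of the 39. The female change was below the male one for 32 of the 39 genes (median -0.17), and the interaction term of Mki67 was -0.51 (SE 0.34, adjusted p = 0.606). Without libraries against their labels it was below the male one for 29 (median -0.14), and 1 gene had an unadjusted p under 0.05. Without B125 and B176 these counts were 31 (-0.16) and 4, and 0 of the 39 and 1.40% of all genes passed. For Ts65Dn;Brwd1+/– vs. Ts65Dn, 0 of the 39 and 0.0% of all genes passed, DESeq2 called 1 gene and none of the 39, and 1 of the 39, Rrm2 at 0.54 (SE 0.27), had an unadjusted p under 0.05 (3.73% of all genes did). Without libraries against their labels 23 of the 39 were below 0 (median -0.02), against 15 (median 0.02) with them. A difference between the sexes was thus not shown for any of the 39 genes.

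The lists around the 40 genes were read in adults as well. In Ts65Dn vs. euploid females, 48 of 67 other G2 and mitosis genes were below 0 (median -0.10), against 54.3% of all genes, and 3 were DE, against 3.17% of all genes. Ncapg, a condensin subunit, fell by 1.08 (SE 0.32, adjusted p = 0.0919), Tacc3, a spindle protein, fell by 0.26 (SE 0.07, adjusted p = 0.0781), and Mis18a rose by 0.37 (SE 0.10, adjusted p = 0.0702). Of other G1 regulators 8 of 10 were below 0 (median -0.13), and Cdk4, the kinase partner of D-type cyclins, fell by 0.21 (SE 0.06, adjusted p = 0.0757). Of 53 other replication genes 38 were below 0 (median -0.10) and none was DE. In Ts65Dn vs. euploid males, 32 of 67 other G2 and mitosis genes were below 0 (median 0.01) and Mis18a alone was DE, rising by 0.82 (SE 0.11, adjusted p = 0.00285). Dyrk1a rose by 0.59 (SE 0.08, adjusted p = 1.25e-04) in Ts65Dn females, by 0.48 (SE 0.08, adjusted p = 0.00253) in Ts65Dn;Brwd1+/– females and by 0.44 (SE 0.09, adjusted p = 0.0255) in Ts65Dn males vs. euploid, and was at 0.34 (SE 0.09, adjusted p = 0.126) in Ts65Dn;Brwd1+/– males. Chaf1b was at 0.10 (SE 0.26, adjusted p = 0.904) in Ts65Dn females and 0.44 (SE 0.26, adjusted p = 0.681) in Ts65Dn males.

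Markers of other cells moved beside the female comparison. In Ts65Dn vs. euploid females Neurog2, a neurogenic factor of intermediate progenitors, rose by 1.35 (SE 0.27, adjusted p = 0.00922), and Gadd45g of the same list fell by 0.36 (SE 0.10, adjusted p = 0.0775). Of the 6 genes of this list 5 were below 0 (median -0.29), and it summed to 33.7 to 64.2 CPM in euploid, highest in B85, and 28.5 to 36.7 CPM in Ts65Dn females. Genes of endothelium and pericytes were above 0 for 6 of 6 (median 0.38), 4 of them at an unadjusted p under 0.05 and none DE. Genes of the choroid plexus were below 0 for 5 of 6 (median -0.43) and those of the ganglionic eminences for 5 of 6 (median -0.37), with none DE. Olig1 and Olig2, factors of the oligodendrocyte lineage on the extra chromosome, rose by 0.45 (SE 0.08, adjusted p = 0.00360) and 0.43 (SE 0.07, adjusted p = 0.00235). Sox11 of immature neurons fell by 0.37 (SE 0.10, adjusted p = 0.0525), in a list with 5 of 7 genes below 0 (median -0.08). Wfs1, a gene of CA1 neurons, fell by 0.66 (SE 0.17, adjusted p = 0.0441), in a list of hippocampal genes with 4 of 6 below 0 (median -0.11), and Fibcd1, another CA1 gene, was at 0.05 (SE 0.10, adjusted p = 0.867). Neurog2 also rose in Ts65Dn males, by 1.56 (SE 0.34, adjusted p = 0.0310), so its rise was not particular to females. Its median was 1.35 log2 CPM in Ts65Dn;Brwd1+/– and 0.06 in euploid females, and 1.74 and 0.48 in these males. The part of these markers in the values of the cell cycle genes was not tested.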

How the data were processed

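RNA of embryonic forebrain and adult hippocampus was extracted with trizol, and unstranded poly(A) libraries were made with a TruSeq RNA kit. The authors deposited raw read counts per gene, 1 table per tissue, from reads aligned to mm10 (HISAT2 2.1.0 and featureCounts 2.0.1 per the processing notes), with the reads of 2 flow cells joined per sample. All columns were assigned to samples by their titles. The labels name no litters, so p-values measure the spread between these samples, which may be technical in part.

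Genes passing filterByExpr were TMM-scaled and tested with edgeR 4.0.16 (limma 3.58.1, R 4.3.3; robust quasi-likelihood test) in 4 fits, on the embryos, the males, the females and all adults (sex by genotype interaction). Benjamini-Hochberg adjustment ran over all genes tested, with an adjusted p under 0.1 as the cutoff. The study used DESeq2 after RUVr. DESeq2 1.42.0 was run as an alternative without and with 1 or 3 RUVr factors from deviance residuals, by code written here. Upper-quartile scaling, no filter, an adjusted p under 0.05, blocks, a sex covariate, leaving out each embryo, and leaving out libraries against their labels were also tried. Leaving out TS5 and TS7, B17, B85, B125, or B125 and B176 was added after seeing the data, TS5 and TS7 because of a tissue marker that is not reported here. Log2 CPM used TMM-scaled totals and a prior count of 0.5, and RPKM used union exon lengths from the GENCODE annotation. Scripts were tested on simulated data.

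A library was taken to lack the extra dosage where the median log2 ratio of its triplicated genes to euploid was under 0.25. The 40 genes and the lists were chosen with earlier results of these data known. Named genes were Mki67, each gene past the cutoff, in each comparison the 2 genes of smallest p in each direction, in each functional group the genes of highest and lowest level, the triplicated Dyrk1a, Chaf1b and Mis18a, and up to 4 called genes of other lists. Other genes of the 40 were named after their values were seen. Correlations among the 40 genes were replaced by counts of embryos.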

Additional observations from a re-analysis of the deposited data

Results flagged for a closer look

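Of 64 sets of values tested for a sample far from the rest of its group, 4 had one, and chance gives about 1 in 20. The median over the 40 genes of the difference from the euploid mean was 0.524 in EU4, against -0.286 to 0.0615 in the other 7 euploid embryos. Without EU4 the median log2 fold change of the 40 genes in Ts65Dn vs. euploid embryos was -0.14, against -0.23 with it. Top2a was at 2.13 log2 CPM in the euploid female B17, against 0.47 to 1.12 in the other euploid females, and without B17 its log2 fold change in Ts65Dn vs. euploid females was -0.60 (SE 0.24, adjusted p = 0.253), against -0.85 (SE 0.27, adjusted p = 0.107) with it. Mcm7 was at 3.05 in the male Ts65Dn B52, against 3.24 to 3.30 in the other Ts65Dn males. Ccnd2 was at 6.92 in the male Ts65Dn;Brwd1+/– B138, one of the libraries without raised dosage, against 6.48 to 6.68 in the other males of its group.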

How the results depend on the processing

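The count of cell cycle genes called was 0 in every comparison with edgeR, under upper-quartile scaling, no filter, an adjusted p under 0.05, the blocks, the sex covariate, and without libraries against their labels, TS5 and TS7, B17 or B85, and 0 to 0 with each embryo left out. Against euploid females it was 1 for Ts65Dn and 3 for Ts65Dn;Brwd1+/– females without the euploid female B125, and 5 and 1 without B125 and B176, where 1603, 1376, 2989 and 761 of all genes were called. DESeq2 alone called 2 in Ts65Dn vs. euploid females and 0 elsewhere. With 1 RUVr factor it called 15 in embryos, 7 in Ts65Dn vs. euploid females, 2 in Ts65Dn;Brwd1+/– vs. euploid females and 1 in these males. With 3 factors it called 25, 9, 5 and 2 there, and 1 and 1 in Ts65Dn;Brwd1+/– vs. Ts65Dn females and males. The cause was not tested. Over all genes, edgeR, DESeq2, and DESeq2 with 1 and 3 factors called 221, 587, 2149 and 3961 genes in embryos. In Ts65Dn vs. euploid females these counts were 543, 1050, 2792 and 4346. In Ts65Dn;Brwd1+/– vs. euploid animals, 1 factor gave 2061 of 17146 genes in females and 672 of 16851 in males. There 3 factors gave 3511 and 1289. In Ts65Dn;Brwd1+/– vs. Ts65Dn females and males 3 factors gave 850 and 954. Leaving out 1 embryo gave 122 (without TS2) to 456 (without EU3) genes called, and leaving out TS5 and TS7 gave 101. Without B17 313 genes were called in Ts65Dn vs. euploid females, and without libraries against their labels 327. In males that setting gave 1.54% of genes called for Ts65Dn and 1.83% for Ts65Dn;Brwd1+/– vs. euploid animals, against 0.795% and 0.576%. With the replicate block, 0 of the 40 genes and 121 of all genes were called in embryos, 39 of the 40 were below 0, and Mki67 was at -0.35 (SE 0.20, adjusted p = 0.550). Embryos with the same number correlated at -0.13 to 0.23, over 0.1 in 3 of 7 pairs, so they were not treated as pairs, and 1 of 7 correlated best with its own number. The interaction term of Mki67 for Ts65Dn;Brwd1+/– vs. Ts65Dn changed sign, from 0.09 to -0.026, without libraries against their labels. Among the 40 genes in euploid embryos, Mki67 ranked 9 and Ccnd2 2 by RPKM, and 3 and 1 by CPM. Depth limits Bub1, Aurkb, Ccnb1, Cdk1, Ube2c, Bub1b, Ccnb2 and Kif23 in adults, where each held under 10 counts in at least 1 library.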
